A study of Mus musculus with 13 samples.

Results

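The coronary vascular endothelial cells of the heart were examined in single-cell RNA sequencing of hearts from wild-type C57Bl/6J mice at embryonic stages E12.5, E14.5 and E16.5 and at postnatal day P3. They were taken as barcodes with at least 2000 unique molecular identifiers (UMIs, which tag each captured transcript) and at least 500 genes, with Tnnt2 under 1000 CPM (a gene's UMIs scaled to a common library total), at least 3 UMIs over Pecam1, Cdh5 and Egfl7, no UMI of Npr3, and at least 2 UMIs over Fabp4 and Cd36. Of 41586 heart barcodes of that depth, 1040 met the rule, and they are called vascular barcodes here. They were thus chosen by their own measured levels of Tnnt2, Pecam1, Cdh5, Egfl7, Npr3, Fabp4 and Cd36. The 2 libraries of E12.5 held 27 and 24 of them, those of E14.5 held 135 and 142, those of E16.5 held 190 and 172, and the P3 matrix held 350. The groups differ in stage alone as far as the labels say, and no genetic change or treatment is named. No label ties a stage's 2 libraries to separate animals, so p-values measure the spread between libraries, which may be technical. P3 is 1 matrix that pools 2 sample records, and replicate 1 of E16.5 also pools 2 records. Endothelial barcodes with at least 1 UMI of Npr3, the natriuretic peptide clearance receptor known from the endocardium, served as the comparison and numbered 2768.

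Coronary vessels form inside the wall of the embryonic heart and later supply the growing myocardium, while the endocardium lines the chambers. As background, the capillary endothelium of the heart is known for taking up fatty acids for the muscle beside it. Lipoprotein lipase is held on the capillary wall by Gpihbp1, the scavenger receptor Cd36 and the binding protein Fabp4 move the freed fatty acids into and through the cell, and the transcription factors Meox2 and Tcf15 are known regulators of this uptake. Arteries are marked by Notch signalling, and growing sprouts by tip cell genes such as Apln, Esm1 and Kcne3.

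The sequence upstream of the gene start is shown for 3 genes on which the results turn. Cd36 belongs to the rule, Meox2 stood among the genes with the largest difference from the Npr3-positive barcodes, and Igfbp7 had one of the largest changes between E14.5 and E16.5. Each run is the 250 bases before the annotated start, 5′ to 3′ on the strand of the gene, from RefSeq on GRCm38.p6. Cd36 lies on the minus strand at chr5:17835897-17836146, Meox2 on the plus strand at chr12:37108290-37108539 and Igfbp7 on the minus strand at chr5:77408046-77408295. Capitals mark the core GGAAG bound by ETS factors, searched on both strands as GGAAG and CTTCC.
Cd36: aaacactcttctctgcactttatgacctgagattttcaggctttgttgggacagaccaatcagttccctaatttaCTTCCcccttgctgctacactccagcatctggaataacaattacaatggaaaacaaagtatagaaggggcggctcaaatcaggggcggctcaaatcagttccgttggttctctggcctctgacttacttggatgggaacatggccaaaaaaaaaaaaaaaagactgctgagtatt
Meox2: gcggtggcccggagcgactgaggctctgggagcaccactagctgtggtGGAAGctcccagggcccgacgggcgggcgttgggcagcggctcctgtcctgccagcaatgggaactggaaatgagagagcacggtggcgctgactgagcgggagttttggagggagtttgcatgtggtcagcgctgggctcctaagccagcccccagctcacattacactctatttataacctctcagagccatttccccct
Igfbp7: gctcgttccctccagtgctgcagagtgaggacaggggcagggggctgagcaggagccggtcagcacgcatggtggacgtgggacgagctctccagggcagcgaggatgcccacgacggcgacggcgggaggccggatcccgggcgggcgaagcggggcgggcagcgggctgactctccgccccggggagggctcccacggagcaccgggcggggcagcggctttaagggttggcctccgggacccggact
Cd36 and Meox2 each held 1 such core and Igfbp7 held 0. Cd36 and Meox2 also held 1 E-box (CANNTG) each, which did not overlap the core, and Igfbp7 held 0. These letters are common, since 64.1% of 32851 promoters of the same length held GGAAG on either strand and 66.2% held CANNTG, so a match is a description of the window only.

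The summed depth of the vascular barcodes was 653354 to 3789436 UMIs per embryonic library and 11071743 UMIs at P3. The median depth of a vascular barcode was 28870 and 22037 UMIs in E12.5 libraries, 19523 and 16133 UMIs in E14.5 libraries, 15750 and 11971 UMIs in E16.5 libraries, and 27052 UMIs in P3. In each of these matrices that was deeper than the median of the Npr3-positive barcodes, which lay between 9783 and 19324. The median mitochondrial share was 2.55 to 3.21% in vascular and 3.55 to 4.75% in Npr3-positive barcodes. Vascular barcodes of different matrices had distinct sequences except for 1 found in both E16.5 replicate 1 and P3. Stage and library preparation cannot be told apart in this design. Xist, which is transcribed in female cells, stood at 47.4 and 179 CPM at E12.5, 327 and 398 CPM at E14.5, and 1067 and 872 CPM at E16.5, and the part of this difference in the results was not tested.

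The levels of the genes that chose the cells are given as a description. Fabp4 stood at 644 and 357 CPM at E12.5, 3401 and 2627 CPM at E14.5, 6335 and 5288 CPM at E16.5, and 14676 CPM at P3. Cd36 stood at 24.2 and 19.9 CPM at E12.5, 111 and 98.5 CPM at E14.5, 381 and 352 CPM at E16.5, and 1884 CPM at P3. The stages did not overlap for either gene, and both stood higher at each later stage. Pecam1, an adhesion molecule of endothelial junctions, ran from 131 and 153 CPM at E12.5 to 266 and 267 CPM at E16.5 and 427 CPM at P3. Cdh5, the endothelial cadherin, ran from 250 and 288 CPM at E12.5 to 487 and 530 CPM at E16.5 and 817 CPM at P3. Egfl7 ran from 421 and 525 CPM at E12.5 to 796 and 713 CPM at E16.5 and 1053 CPM at P3. Tnnt2, the cardiac troponin T gene, was at 78.1 to 153 CPM in the embryonic libraries and 212 CPM at P3, and Npr3 was at 0 by the rule. All 4 markers given with the name of these cells were detected in every matrix.

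Vascular barcodes made up a growing share of the endothelial barcodes. The share was 2.74% and 2.11% in libraries of E12.5, 23.4% and 27.8% in libraries of E14.5, 40.7% and 40.0% in libraries of E16.5, and 54.3% in the P3 matrix. Exact 95% binomial intervals, which cover counting error only, were 1.81 to 3.96% and 1.35 to 3.12% for E12.5, 20 to 27% and 23.9 to 31.9% for E14.5, 36.2 to 45.3% and 35.3 to 44.8% for E16.5, and 50.4 to 58.2% in the P3 matrix. The intervals of different stages did not overlap between E12.5, E14.5 and E16.5. By the 2 barcode suffixes of P3, described below, the share was 47.2% (42 to 52.5%) and 63.4% (57.5 to 69%). The interval of suffix 1 overlapped those of E16.5. After every barcode was thinned to 2000 UMIs before the rule was applied, the share was 1.2% and 0% in libraries of E12.5, 23.1% and 28.4% in libraries of E14.5, 43.6% and 40.7% in libraries of E16.5, and 66.4% in the P3 matrix. The order of the stages was the same with and without thinning.

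**Figure D1:**
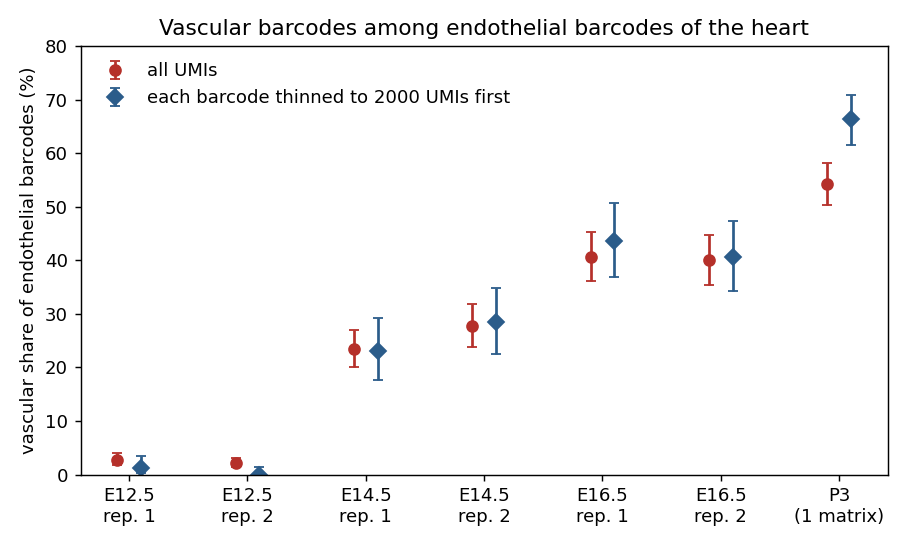
Share of endothelial barcodes that met the vascular rule, in percent, for each embryonic library and for the P3 matrix, with exact 95% binomial intervals, at full depth and after thinning to 2000 UMIs. The full-depth share lay between 2.11% and 2.74% in libraries of E12.5 and between 40.0% and 40.7% in libraries of E16.5.

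The Fabp4 and Cd36 gate was also met by barcodes that lacked endothelial transcripts, and by a larger share of them at each later stage. Among barcodes with Tnnt2 under 1000 CPM and no UMI of Pecam1, Cdh5 and Egfl7, those with at least 2 UMIs of Fabp4 and Cd36 made up 0.575% and 1.03% in libraries of E12.5, 2.49% and 1.99% in libraries of E14.5, 8.32% and 7.27% in libraries of E16.5, and 36.9% in the P3 matrix. Among endothelial barcodes the same gate was met by 3.65% and 3.51%, 28.4% and 31.5%, 46.9% and 44.4%, and 81.7% in that order. At P3, 176 of the endothelial barcodes met the gate and also carried Npr3, against 297 over all matrices. The endothelial share was above that of the barcodes without endothelial transcripts in each matrix, with both at their highest at P3. Barcodes with Tnnt2 at 1000 CPM or more, which hold cardiomyocyte transcripts, met the gate in 11% and 11.2%, 18.3% and 14.1%, 44% and 31.2%, and 94.1% in the same order, which at E12.5 and P3 is above the endothelial share. Thinned to 2000 UMIs, the gate was met by 0.15% and 0.333% of the Tnnt2-high barcodes in libraries of E12.5 and by 27.1% in the P3 matrix, against 1.01%, 0.439% and 62.6% of the endothelial ones.

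The threshold of 2 UMIs mattered most at E12.5. There, 31 Npr3-negative endothelial barcodes had 1 UMI of Fabp4 and Cd36 and fell outside, 16 had 2 UMIs, 2 had 3 and 33 had at least 4. Tmem108, a gene of the Npr3-positive barcodes, stood at 215 CPM in those with 1 UMI, 54.5 CPM in those with 2 and 9.47 CPM in those with at least 4. Tcf15 stood at 30.5, 67.4 and 201 CPM in the same order, and Aplnr, the apelin receptor, at 4.82, 22.5 and 75.8 CPM. For these 3 genes, barcodes just inside the threshold lay between those outside and those well inside. This did not hold for Cd34, at 174, 160 and 253 CPM, or for Meox2, at 0, 0 and 15.5 CPM. The stage tests and the unthinned shares below were also computed with at least 4 UMIs, which left 20 and 13 barcodes.

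Against the Npr3-positive barcodes, the vascular barcodes held more of capillary and sprouting genes and less of endocardial ones. The rule chose both classes from these cells, so the differences are a description with no test. A gene was counted when it lay on the same side in each of the 6 embryonic libraries and its mean ratio was at least 2-fold. Of 5174 genes at 20 CPM or more in the higher class, 182 (3.52%) were higher in vascular barcodes and 430 (8.31%) were lower. The largest mean log2 ratio over the 6 libraries, with 1 CPM added, belonged to Rgcc, a cell cycle regulator also known from capillaries, at 4.65 ± 1.49 (SD, n = 6). Apln, the ligand of Aplnr, had a mean log2 ratio of 4.26 ± 0.92, Meox2 of 3.87 ± 0.52, Aplnr of 3.86 ± 0.42, the tight junction gene Cldn5 of 3.77 ± 0.85, Btnl9 of 3.62 ± 0.65, the potassium channel subunit Kcne3 of 3.59 ± 1.97, the mechanosensitive channel Piezo2 of 3.39 ± 0.43 and Gpihbp1 of 3.34 ± 0.59. Vwa1, Tmem255a and 8430408G22Rik complete the 12 highest. On the other side stood Ifi205 at -5.65 ± 0.87, Mnda at -5.62 ± 0.73, the adhesion receptor Adgrg6 at -5.46 ± 1.03, the matrix protein Smoc1 at -4.71 ± 1.24, Tmem108 at -4.56 ± 0.92, the cadherin Cdh11 at -4.51 ± 1.07 and the homeobox gene Irx5 at -4.38 ± 0.95. Apoc1, Col23a1, Colec11 and Sall1 were also among the 12 lowest.

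Meox2 shows how far the classes lay apart. Its vascular level was 11 and 13.8 CPM at E12.5, 68.1 and 79.2 CPM at E14.5, 72.3 and 79.6 CPM at E16.5, and 92.3 CPM at P3. The Npr3-positive level of Adgrg6 was 123 to 181 CPM in the embryonic libraries, while its vascular level was 0.606 to 6.12 CPM. Among 14 endocardial genes at 20 CPM or more in the higher class, 0 were higher and 14 lower in vascular barcodes. A gene could pass 20 CPM through the class where it was high, and the rule chose both classes. This count and those below are thus a description only. Of the lipid list, 6 of 10 were higher, of the capillary list 7 of 13, of the tip and angiogenic list 8 of 13, and of the glycolysis list 7 of 14, with 0 lower in each. The shares of all genes were 3.52% higher and 8.31% lower. Other endothelial lists were mixed. Of 13 arterial genes 2 were higher and 1 lower, of 8 venous genes 2 and 4, and of 32 transcription factors 4 and 9. Of 19 basement membrane and matrix genes 3 were higher and 5 lower, and of 16 junction and surface genes 2 and 3. The median log2 ratio was 1.46 for lipid genes, 2.26 for capillary genes, 1.91 for tip genes and 0.98 for glycolytic genes, against -0.02 for all genes. Of the 16 VEGF, TIE and ALK1 receptors, Nrp2 and Robo4 were higher and Tek, Tie1, Eng, Calcrl, Ramp2 and Ednrb lower. Of 12 imprinted growth genes, Peg10 was higher and 8 were lower.

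The question of how these cells changed while the coronary bed grew was addressed by comparing stages over libraries. Counts were summed over the vascular barcodes of each library, and 9835 genes were tested, with 2 libraries a stage, by the quasi-likelihood test of edgeR. P-values were adjusted over all genes tested by the method of Benjamini and Hochberg. Below, a difference is a log2 fold change of normalised counts with its standard error, and a gene rose or fell when its adjusted p was under 0.05. From E12.5 to E14.5, 463 genes rose (4.71% of those tested) and 552 fell (5.61%), 10.3% in all. From E14.5 to E16.5, 782 rose (7.95%) and 761 fell (7.74%), 15.7% in all. From E12.5 to E16.5, 1161 rose (11.8%) and 1313 fell (13.4%), 25.2% in all, with a median difference of 0.03 over all genes. A second test over 10886 genes asked whether the change over stages differed between vascular and Npr3-positive barcodes, with the library as a block. It called 266 genes (2.44%) for E14.5 against E12.5, with a positive difference for 1.17% of genes and a negative one for 1.28%. This split moved with the settings, from 127 positive and 139 negative genes to 30 and 98 without the library block, 23 and 67 with DESeq2, and 344 and 167 without the expression filter. A positive difference means that the log2 change was higher in vascular barcodes, through a larger rise or a smaller fall there or a fall in Npr3-positive barcodes alone, and a negative difference the reverse. It called 366 (3.36%) for E16.5 against E14.5, 1.98% positive and 1.39% negative, and 701 (6.44%) for E16.5 against E12.5, 3.7% positive and 2.74% negative. The last split, 403 and 298 genes, was 660 and 268 without the expression filter, 248 and 247 without the library block, and 109 and 26 after thinning. For E16.5 against E14.5, 215 and 151 genes became 269 and 119 with DESeq2's size factors and 47 and 12 after thinning. Npr3-positive barcodes with Fabp4 and Cd36 were kept in their class.

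Genes of capillary endothelium rose together. From E12.5 to E16.5, 16 of 17 tested genes of the capillary endothelium list rose and 0 fell, against 11.8% and 13.4% of all genes. Their median difference was 3.24, or 2.44 with genes at no count set to their bound. Gpihbp1 stood at 41.8 and 35.2 CPM at E12.5, 148 and 155 CPM at E14.5, 583 and 551 CPM at E16.5, and 1069 CPM at P3. No stage overlapped another, and the difference between E16.5 and E12.5 was 3.80 ± 0.16 (SE, edgeR adjusted p = 1.92e-14). Rgcc went from 15.4 and 45.9 CPM at E12.5 to 107 and 102 CPM at E14.5 and 309 and 252 CPM at E16.5, a difference of 3.24 ± 0.28 (edgeR adjusted p = 4.48e-06). Cd300lg, a surface glycoprotein of capillaries, was at 2.2 and 0 CPM at E12.5, 12.7 and 10.2 CPM at E14.5, 62.8 and 53.4 CPM at E16.5, and 188 CPM at P3. Its 2 counts at E12.5 make the summed ratio of E16.5 to E12.5 45.9, with a counting interval of 12.6 to 381. Rbp7, a retinol-binding protein, went from 26.4 and 7.65 CPM to 230 and 187 CPM, a difference of 3.44 ± 0.26 (edgeR adjusted p = 1.46e-08). Car4, a carbonic anhydrase on the capillary surface, was the member that did not pass the test, at 2.2 and 0 CPM at E12.5 and 5.28 and 10.2 CPM at E16.5.

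The capillary genes called as rising differed between the intervals. Between E12.5 and E14.5, 8 of 17 rose, against 4.71% of all genes, with a median of 1.83. That median was 1.09 with genes at no count set to their bound. Between E14.5 and E16.5, 14 of 17 rose, against 7.95% of all genes, with a median of 1.89. Aqp1, a water channel, stood at 30.8 and 58.2 CPM at E12.5, 36 and 37.8 CPM at E14.5, and 170 and 196 CPM at E16.5. Its E12.5 and E14.5 libraries overlapped and those of E16.5 lay above both, with a difference between E16.5 and E12.5 of 2.04 ± 0.20 (edgeR adjusted p = 5.46e-08). The glycoprotein Ly6c1 was at 0 and 6.12 CPM at E12.5, 11.5 and 7.27 CPM at E14.5, 154 and 114 CPM at E16.5, and 535 CPM at P3, with a difference of 5.63 ± 0.51 (edgeR adjusted p = 4.58e-06). Meox2 belongs to this list and to the lipid list and followed another course, with a difference of 2.55 ± 0.27 between E14.5 and E12.5 (edgeR adjusted p = 7.78e-07) and similar levels at E14.5 and E16.5. Tcf15, a basic helix-loop-helix factor, went from 193 and 141 CPM at E12.5 to 326 and 333 CPM at E14.5 and 385 and 448 CPM at E16.5, a difference over the whole span of 1.24 ± 0.14 (edgeR adjusted p = 3.70e-07).

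**Figure D2:**
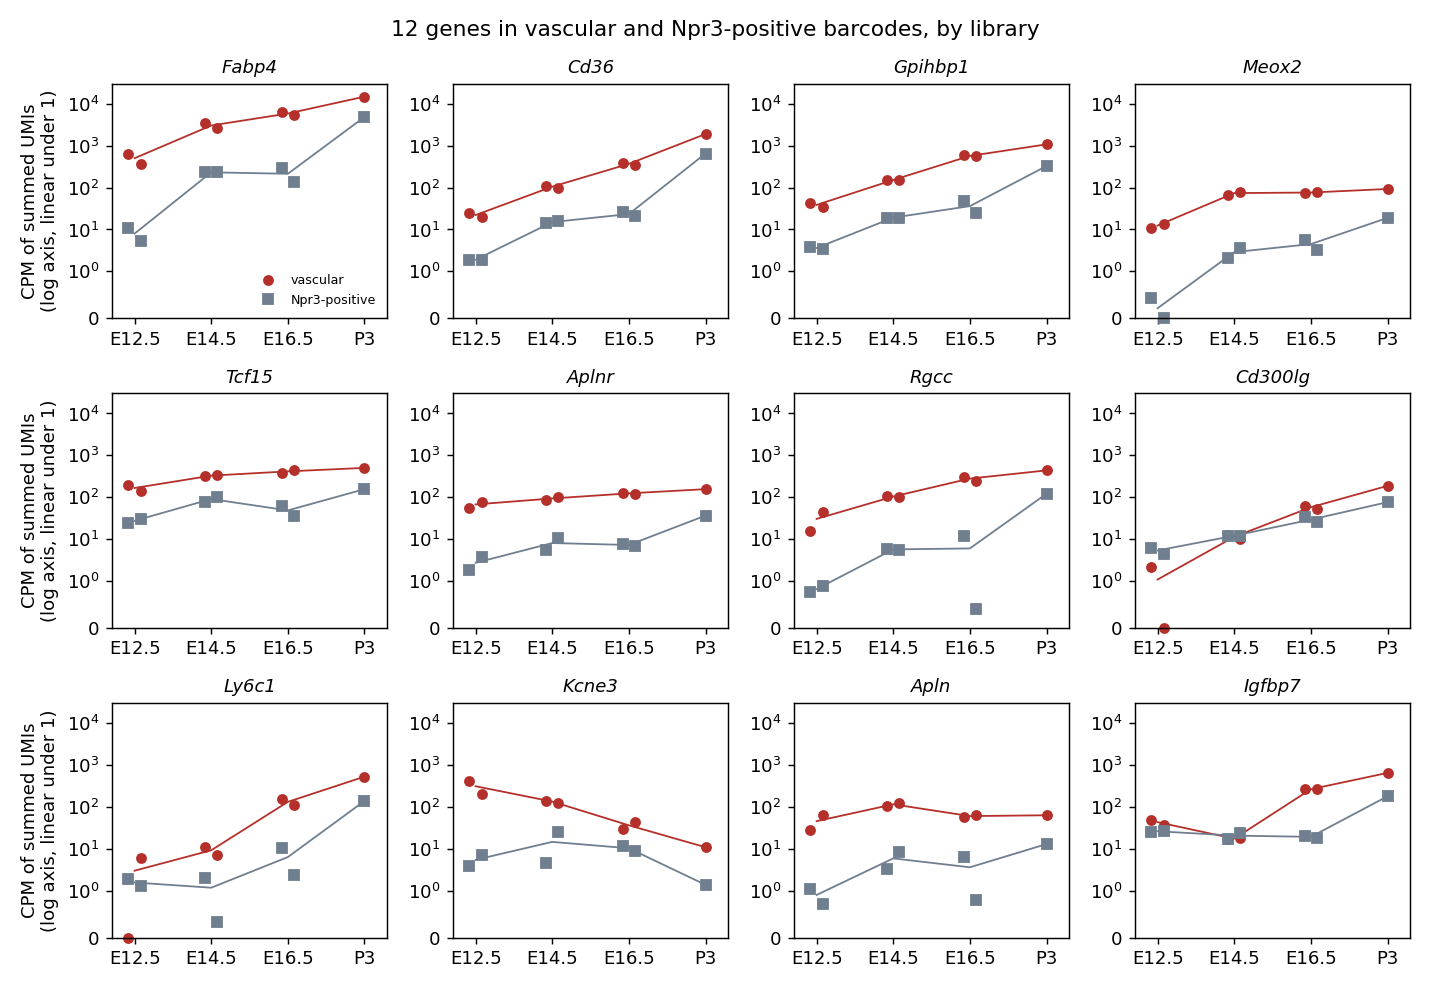
CPM of 12 genes in vascular (red circles) and Npr3-positive (grey squares) barcodes, 1 point per library, on a log axis that is linear under 1 CPM, with lines through the mean of each stage. Gpihbp1 in vascular barcodes ran from 35.2 CPM at E12.5 to 583 CPM at E16.5, while Kcne3 ran from 422 CPM at E12.5 down to 29.6 CPM at E16.5.

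Lipid uptake and handling genes rose in part. From E12.5 to E16.5, 10 of 20 tested genes rose and 1 fell, against 11.8% and 13.4% of all genes, with a median of 0.79. Lpl, the lipase itself, stood at 8.81 and 19.9 CPM at E12.5, 16.4 and 12 CPM at E14.5, 84.7 and 77 CPM at E16.5, and 277 CPM at P3, a difference of 2.52 ± 0.28 (edgeR adjusted p = 4.08e-07). Its rise was larger than in the Npr3-positive barcodes by 1.27 ± 0.34 (edgeR adjusted p = 0.0165). Mgll, which breaks down monoglycerides, went from 5.51 and 9.18 CPM at E12.5 to 51.8 and 47.6 CPM at E14.5 and 183 and 195 CPM at E16.5, a difference of 4.67 ± 0.26 (edgeR adjusted p = 2.63e-12). Cav1, the coat protein of caveolae, went from 176 and 118 CPM to 757 and 733 CPM and then 1207 and 1259 CPM, a difference of 2.98 ± 0.13 (edgeR adjusted p = 1.17e-13). Pparg, a nuclear receptor of lipid genes, rose by 1.60 ± 0.47 (edgeR adjusted p = 0.0142), and Angptl4, Cav2 and Apold1 rose as well. Lrp8 fell. Fabp5, a second fatty acid binding protein, was at 2918 and 1531 CPM at E12.5 and 2145 and 2024 CPM at E16.5, and its libraries overlapped. Of 17 tested enzymes of fatty acid oxidation 1 rose, against 11.8% of all genes, 0 fell, and the median was -0.18. The gene called was Hadha, at 39.6 and 53.6 CPM at E12.5 and 75.2 and 64.7 CPM at E16.5, and it did not pass with DESeq2, under mitochondrial ceilings, without barcodes with markers of other cells or without any 1 of E12.5 replicate 1, E14.5 replicates 1 and 2 and E16.5 replicate 1.

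Set against the Npr3-positive barcodes, most capillary and lipid genes were not called as changing differently, which does not show that the classes changed alike. For E16.5 against E12.5, the difference was positive for 3.7% of all genes and negative for 2.74%. Of 22 lipid genes it was positive for 2, Lpl and Angptl4, and negative for 0. It was positive for 6 of 17 genes of the capillary endothelium list and negative for 0, namely Aqp1, Car4, Cd300lg, Rbp7, Cxcl12 and Kdr. Of these, the rise of Car4 in vascular barcodes did not pass the test, and in Npr3-positive barcodes it was detected in 4.55% and 3.4% at E12.5 and in 0.417% and 0% at E16.5. The number of capillary endothelium genes called was 3 with DESeq2 and 10 without E16.5 replicate 1. In Npr3-positive barcodes Gpihbp1 also went up, from 3.85 and 3.39 CPM at E12.5 to 47.6 and 24.4 CPM at E16.5 and 325 CPM at P3. Cd36 did so from 1.89 and 1.9 CPM at E12.5 to 26.2 and 20.4 CPM at E16.5 and 647 CPM at P3. The Npr3-positive level of Gpihbp1 lay below the vascular one in every matrix, while the order of Cd36 is no finding, since the rule asks for Fabp4 and Cd36 in vascular barcodes.

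Transcription factors of the endothelium rose more often than they fell, with 19 of 33 higher, 1 lower and a median of 0.57 from E12.5 to E16.5. Of all genes, 11.8% rose and 13.4% fell. Sox17, known for arterial fate, stood at 35.2 and 58.2 CPM at E12.5, 73.3 and 57 CPM at E14.5, 111 and 119 CPM at E16.5, and 169 CPM at P3, a difference of 1.29 ± 0.21 (edgeR adjusted p = 5.42e-05). Sox7 went from 33 and 30.6 CPM at E12.5 to 60 and 69.4 CPM at E14.5 and 59.9 and 65.4 CPM at E16.5. Erg, an ETS factor of endothelial identity, was at 35.2 and 36.7 CPM at E12.5 and 41.4 and 39.6 CPM at E16.5 and was not called. Foxc2 was the factor that fell. Of 34 tested, the difference between the classes was positive for 5 (Meox1, Fli1, Id1, Id3 and Klf4) and negative for 2 (Erg and Mef2a), against 3.7% and 2.74% of all genes.

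Genes of arterial endothelium rose in the vascular barcodes as well. From E12.5 to E16.5, 14 of 20 tested genes of the arterial endothelium list rose and 1 fell, with a median of 1.43. The count of genes that rose was 9 with at least 4 UMIs of Fabp4 and Cd36, 9 with DESeq2, and 9 without either E12.5 library or without E16.5 replicate 1. Gja5, the connexin 40 gene, was at 0 and 4.59 CPM at E12.5, 17 and 17.8 CPM at E14.5, and 21.4 and 22.2 CPM at E16.5, and its 3 counts at E12.5 give a summed ratio of 11.3 with a counting interval of 3.79 to 55.4. Hey1, a Notch target, went from 18.7 and 10.7 CPM to 50.1 and 60.3 CPM, a difference of 1.78 ± 0.29 (edgeR adjusted p = 6.71e-05). Unc5b, a netrin receptor, went from 33 and 16.8 CPM to 94.7 and 114 CPM, a difference of 1.93 ± 0.23 (edgeR adjusted p = 1.30e-06). Hey2, which is known from arteries and from the heart muscle, fell from 13.2 and 29.1 CPM to 2.38 and 2.91 CPM, a difference of -2.98 ± 0.62 (edgeR adjusted p = 0.00209). Of 12 genes of the Notch pathway, 6 rose and 1 fell, and of 9 genes of the venous endothelium list 5 rose and 0 fell, or 2 without E12.5 replicate 1, against 11.8% and 13.4% of all genes.

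Gja4, the connexin 37 gene, had a different course in each class. Its vascular level went from 27.5 and 19.9 CPM at E12.5 to 83 and 41.8 CPM at E14.5 and 110 and 86.1 CPM at E16.5. Its Npr3-positive level was 133 and 125 CPM at E12.5, 86.1 and 82.2 CPM at E14.5, and 109 and 86.8 CPM at E16.5. The change from E12.5 to E16.5 was 2.46 ± 0.33 larger in the vascular barcodes (edgeR adjusted p = 0.000817). Fbln5 and Mecom were the other 2 of 21 arterial genes with a positive difference, which was found for 3.7% of all genes.

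Barcodes with at least 2 UMIs over 6 arterial genes (Gja4, Gja5, Hey1, Sox17, Bmx and Gkn3) made up 54.9% of the vascular barcodes for E12.5, 52.8% for E14.5, 59.15% for E16.5 and 82.6% in the P3 matrix as means over libraries. The share moved with depth. Thinned to 2000 UMIs, the share was 0% in both E12.5 libraries, 11.1% and 11.3% in libraries of E14.5, 11.6% and 16.3% in libraries of E16.5, and 15.4% in the P3 matrix. The 0 of 27 and 0 of 24 barcodes at E12.5 allow shares of barcodes with these UMIs of up to 12.8% and 14.2%, for counting error only, and the stages were not tested against each other. At E14.5 and E16.5, the arterial genes Unc5b and Efnb2, which are outside the gate, were also higher in the gated barcodes. Unc5b stood at 111 and 110 CPM in gated and at 69.4 and 47.3 CPM in other vascular barcodes at E14.5, and at 118 and 142 CPM against 42.7 and 41.5 CPM at E16.5. Efnb2, the arterial ephrin, stood at 90.5 and 84.3 CPM against 36.7 and 40.2 CPM at E16.5, but at 27.7 and 26.6 CPM against 49.1 and 29.2 CPM at E12.5. Aplnr was lower in the gated barcodes, at 115 and 110 CPM against 161 and 147 CPM at E16.5.

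Of 18 tip and angiogenic genes, 9 rose and 3 fell (Esm1, Kcne3 and Plaur) from E12.5 to E16.5, with a median of 0.57, against 11.8% and 13.4% of all genes. The count of genes that rose was 5 with DESeq2, without E12.5 replicate 1 or without E16.5 replicate 1. By step, 8 rose and 0 fell from E12.5 to E14.5, against 4.71% and 5.61% of all genes. From E14.5 to E16.5, 1 rose and 5 fell, against 7.95% and 7.74%. Apln stood at 28.6 and 64.3 CPM at E12.5, 107 and 127 CPM at E14.5, 57.3 and 65.4 CPM at E16.5, and 64.2 CPM at P3, where the 2 barcode suffixes described below held 22.7 and 100 CPM. It rose by 1.37 ± 0.23 to E14.5 (edgeR adjusted p = 0.000775) and then fell by 0.96 ± 0.17 on the log2 scale (edgeR adjusted p = 0.00054). Igfbp3, an IGF-binding protein, was at 110 and 110 CPM at E12.5, 341 and 294 CPM at E14.5, 93.9 and 138 CPM at E16.5, and 55.5 CPM at P3. Kcne3 went from 422 and 210 CPM at E12.5 to 143 and 129 CPM at E14.5, 29.6 and 44.3 CPM at E16.5, and 11.1 CPM at P3, and fell by 3.21 ± 0.44 on the log2 scale between E12.5 and E16.5 (edgeR adjusted p = 0.0124), while neither step alone passed the test. Esm1 went from 46.3 and 19.9 CPM at E12.5 to 24.8 and 17.1 CPM, 12.4 and 6.54 CPM, and 2.62 CPM at P3, a fall to E16.5 of -1.88 ± 0.41 (edgeR adjusted p = 0.00391). Aplnr rose by 0.85 ± 0.17 over the same span (edgeR adjusted p = 0.000747).

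Of 16 receptors for vascular growth factors, 3 rose and 2 fell (Tek and Ramp2) from E12.5 to E14.5, against 4.71% and 5.61% of all genes. From E14.5 to E16.5, 10 rose and 0 fell, against 7.95% and 7.74%. Over the whole span from E12.5 to E16.5, 10 rose and 0 fell, against 11.8% and 13.4% of all genes, with a median of 0.65. Kdr, the main VEGF receptor, stood at 243 and 194 CPM at E12.5, 338 and 342 CPM at E14.5, 459 and 425 CPM at E16.5, and 543 CPM at P3, a difference of 0.94 ± 0.12 (edgeR adjusted p = 4.25e-06). In the Npr3-positive barcodes Kdr stayed between 195 and 254 CPM in the embryonic libraries and was 228 CPM at P3. The change was 1.03 ± 0.12 larger in the vascular barcodes (edgeR adjusted p = 8.71e-07). The difference between classes was negative for Tek, Eng and Robo4. Tek, the angiopoietin receptor, was at 45.2 and 84.2 CPM at E12.5, 36.3 and 39.2 CPM at E14.5, and 63.9 and 62.9 CPM at E16.5. Its E12.5 and E16.5 libraries overlapped, while those of E14.5 lay below both. Tek fell to E14.5 and then rose to E16.5, and was not called between E12.5 and E16.5. Of 19 ligands made by the endothelium, 4 rose (Pdgfb, Bmp4, Cxcl12 and Igf2) and 3 fell (Tgfb1, Nrg1 and Slit2), against 11.8% and 13.4% of all genes.

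Basement membrane and junction genes rose over the whole span. Of 19 basement membrane and matrix genes, 6 rose and 5 fell from E12.5 to E14.5, against 4.71% and 5.61% of all genes. From E14.5 to E16.5, 10 rose and 0 fell, against 7.95% and 7.74%. From E12.5 to E16.5, 14 rose and 1 fell, against 11.8% and 13.4% of all genes, with a median of 0.74. Col4a1, a chain of the collagen of basement membranes, stood at 287 and 341 CPM at E12.5, 477 and 554 CPM at E14.5, 814 and 890 CPM at E16.5, and 1682 CPM at P3. The difference was 1.39 ± 0.11 (edgeR adjusted p = 3.37e-09) and was 0.59 ± 0.09 larger than in the Npr3-positive barcodes (edgeR adjusted p = 6.89e-05). Over the 19 genes of the list, the difference between the classes was positive for 4 (Col4a1, Col4a2, Igfbp7 and Col18a1) and negative for 3 (Col15a1, Col5a1 and Col5a2). Its median over the list was -0.20, and it was positive for 3.7% and negative for 2.74% of all genes. Fn1, fibronectin, fell by 0.87 ± 0.20 on the log2 scale (edgeR adjusted p = 0.00815). Of 16 junction and surface genes 11 rose and 1 fell, against 11.8% and 13.4% of all genes. Cldn5 was at 262 and 167 CPM at E12.5, 240 and 195 CPM at E14.5, 538 and 482 CPM at E16.5, and 815 CPM at P3, so that its E12.5 and E14.5 libraries overlapped and those of E16.5 lay above them, with a difference from E12.5 of 1.17 ± 0.17 (edgeR adjusted p = 0.000264).

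Igfbp7, a secreted protein of vessel walls that binds IGFs, changed direction. It stood at 49.6 and 38.3 CPM at E12.5, 17 and 18.5 CPM at E14.5, 272 and 265 CPM at E16.5, and 657 CPM at P3. It fell by 1.37 ± 0.23 on the log2 scale to E14.5 (edgeR adjusted p = 0.000289) and then rose by 3.90 ± 0.15 (edgeR adjusted p = 3.62e-15). The Npr3-positive barcodes held 17.8 to 27.6 CPM of Igfbp7 in the embryonic libraries. The step from E14.5 to E16.5 was 3.96 ± 0.23 larger in the vascular barcodes (edgeR adjusted p = 5.54e-13). RNA in barcodes of at most 100 UMIs, a measure of free RNA, held 39.8 CPM of Igfbp7 at E14.5 and 52.5 CPM at E16.5.

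Flow-responsive genes and immediate early genes rose side by side. Of 10 flow-responsive genes, 8 rose from E12.5 to E16.5 and 0 fell, against 11.8% and 13.4% of all genes, with a median of 1.51. With DESeq2's size factors 7 rose and 1 fell. Klf4 stood at 11 and 30.6 CPM at E12.5, 39.4 and 41.4 CPM at E14.5, 151 and 161 CPM at E16.5, and 464 CPM at P3, a difference of 2.95 ± 0.24 (edgeR adjusted p = 3.76e-09). Klf2, which shear stress induces, went from 70.5 and 167 CPM to 207 and 144 CPM and then 522 and 634 CPM, a difference of 2.28 ± 0.46 (edgeR adjusted p = 0.0439). Of 16 immediate early and heat shock genes, which cells also induce while tissue is dissociated, 12 rose and 1 fell, with a median of 1.72. The shares of all genes were again 11.8% and 13.4%. Fos was at 91.4 and 171 CPM at E12.5, 140 and 168 CPM at E14.5, 763 and 765 CPM at E16.5, and 1136 CPM at P3. The summed level of the 16 genes was 1639 to 2010 CPM in the E12.5 and E14.5 libraries, 3919 and 3968 CPM at E16.5, and 6071 CPM at P3. In the Npr3-positive barcodes the same sum ran from 1523 and 1457 CPM at E12.5 to 2824 and 2534 CPM at E16.5 and 4136 CPM at P3. The part of these genes in the rise of Klf2 and Klf4 was not tested.

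Antigen presentation and interferon genes rose late. Of 15 tested, 13 rose from E12.5 to E16.5 and 0 fell, against 11.8% and 13.4% of all genes, with a median of 2.25. From E14.5 to E16.5 14 rose, against 7.95% of all genes. From E12.5 to E14.5 1 rose, against 4.71%. H2-D1, a class I antigen presenting molecule, stood at 74.9 and 47.4 CPM at E12.5, 83.3 and 68.7 CPM at E14.5, 130 and 122 CPM at E16.5, and 398 CPM at P3, a difference of 0.95 ± 0.19 (edgeR adjusted p = 0.000511). B2m, its partner chain, went from 347 and 239 CPM at E12.5 and 319 and 287 CPM at E14.5 to 505 and 413 CPM at E16.5. Ifitm3, an interferon-induced membrane protein, was at 69.4 and 32.1 CPM at E12.5, 127 and 130 CPM at E14.5, 465 and 358 CPM at E16.5, and 1123 CPM at P3, a difference of 2.90 ± 0.24 (edgeR adjusted p = 3.82e-06). Its rise was 2.03 ± 0.18 larger than in the Npr3-positive barcodes (edgeR adjusted p = 7.11e-07). Between the classes, 8 of 18 genes of the antigen presentation and interferon genes list had a positive difference and 0 a negative one. Without E12.5 replicate 1, 5 were positive. Of all genes, 3.7% had a positive difference and 2.74% a negative one. Isg15 had 1 count at E12.5 and 113 at E16.5, a summed ratio of 27 with a counting interval of 4.74 to 1075. The list shares Ly6a and Ly6c1 with the capillary list.

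Glycolytic genes fell. Of 19 tested, 0 rose from E12.5 to E16.5 and 12 fell, against 11.8% and 13.4% of all genes, with a median of -0.98. Most of the fall lay between E14.5 and E16.5, where 1 rose and 13 fell, against 7.95% and 7.74% of all genes. Between E12.5 and E14.5, 0 rose and 4 fell, against 4.71% and 5.61%. Without E14.5 replicate 2 the earlier fall of glycolysis genes was called for 0, and without E14.5 replicate 1 the later one for 8. Ldha, lactate dehydrogenase A, stood at 1410 and 1329 CPM at E12.5, 1027 and 899 CPM at E14.5, 491 and 541 CPM at E16.5, and 435 CPM at P3, where the barcode suffixes held 257 and 590 CPM, and fell by 1.47 ± 0.10 on the log2 scale to E16.5 (edgeR adjusted p = 8.46e-11). Eno1, enolase, was at 522 and 491 CPM at E12.5, 494 and 424 CPM at E14.5, 178 and 204 CPM at E16.5, and 136 CPM at P3 (84.1 and 182 CPM by suffix), a difference of -1.47 ± 0.12 (edgeR adjusted p = 2.38e-09). Pkm, pyruvate kinase, went from 759 and 825 CPM to 324 and 344 CPM at E16.5, a difference of -1.30 ± 0.12 (edgeR adjusted p = 1.55e-08). The lactate exporter Slc16a3 fell by 2.45 ± 0.25 on the log2 scale (edgeR adjusted p = 9.29e-08). Gapdh, Aldoa and Slc2a1, the glucose transporter, fell too, and Pgk1 did not pass the test, at 34.1 and 19.9 CPM at E12.5 and 15.6 and 20.3 CPM at E16.5.

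The fall of glycolysis was steeper than in the Npr3-positive barcodes. The summed level of the 20 genes was 8494 and 8337 CPM at E12.5, 7064 and 6038 CPM at E14.5, 3623 and 3856 CPM at E16.5, and 3079 CPM at P3 in the vascular barcodes. It was 3387 and 3422 CPM, 2759 and 2956 CPM, 2260 and 2332 CPM, and 2086 CPM in the Npr3-positive barcodes. For E16.5 against E12.5, 8 of 19 genes fell more in the vascular barcodes and 0 less. The difference was negative for 2.74% and positive for 3.7% of all genes. Among the 8 were Eno1 by -1.21 ± 0.13 (edgeR adjusted p = 1.35e-07), Pkm by -0.85 ± 0.12 (edgeR adjusted p = 2.85e-05) and Ldha by -0.64 ± 0.10 (edgeR adjusted p = 9.39e-05). The vascular sum lay above the Npr3-positive sum in each matrix, and the distance was smallest at P3.

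**Figure D3:**
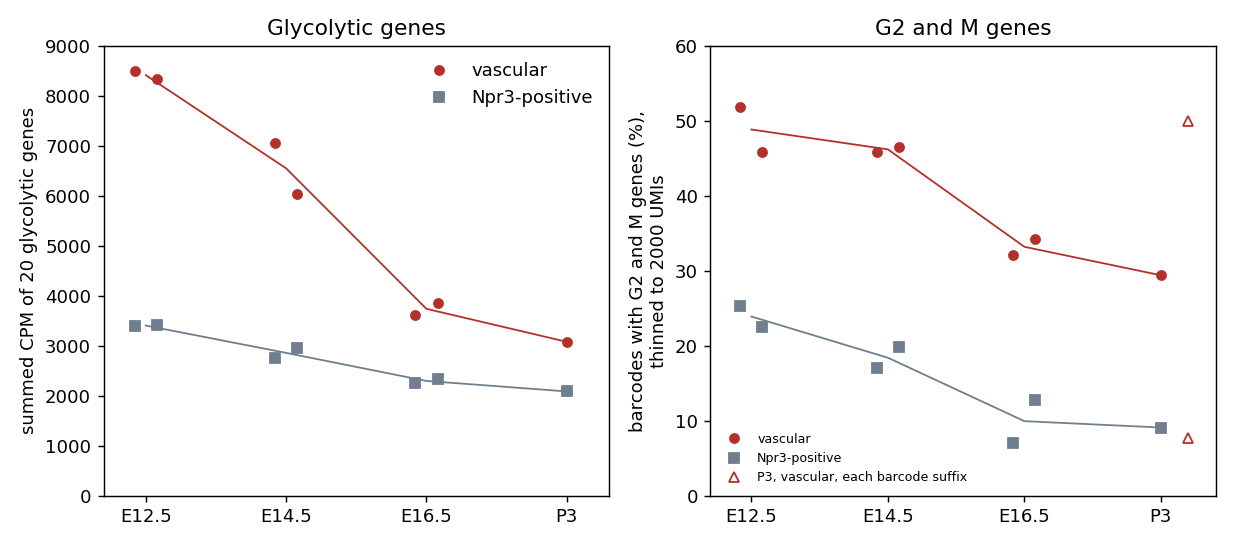
Left, summed CPM of 20 glycolytic genes in vascular (red circles) and Npr3-positive (grey squares) barcodes of each library. Right, share of barcodes with at least 3 UMIs over 20 G2 and M genes after thinning to 2000 UMIs, in percent, with open triangles for the vascular barcodes of each P3 barcode suffix. The glycolytic sum of vascular barcodes fell from 8494 CPM to 3079 CPM, and the 2 P3 suffixes stood at 7.65% and 50%.

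Cell cycle genes are given by phase. Of 20 S phase genes, 0 rose from E12.5 to E16.5 and 13 fell, with a median of -0.73. Pcna, the replication clamp, went from 92.5 and 106 CPM at E12.5 to 68.9 and 68.3 CPM at E16.5, and the replicative helicase gene Mcm2 from 37.4 and 33.7 CPM to 17.9 and 23.6 CPM. Of 20 G2 and M genes, 4 rose and 4 fell, against 11.8% and 13.4% of all genes, and their median was 0.00. The lists were not tested against each other. Mki67, a proliferation marker, stood at 50.7 and 70.4 CPM at E12.5, 62.4 and 67.9 CPM at E14.5, and 76.8 and 105 CPM at E16.5 in the vascular barcodes, and at 40.8 to 54 CPM in the Npr3-positive ones. Of 8 cell cycle inhibitors, 6 rose and 0 fell.

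The stage course of G2 and M genes differed between the classes. For E16.5 against E12.5, the difference was positive for 11 of 20 and negative for 0, against 3.7% and 2.74% of all genes, with a median of 0.85. The summed level of the 20 genes went from 1578 and 1404 CPM to 802 and 945 CPM in Npr3-positive barcodes, and from 1847 and 1930 CPM to 1874 and 1827 CPM in vascular ones. Birc5, a mitotic gene that blocks apoptosis, stood at 267 and 213 CPM at E12.5 and 213 and 206 CPM at E16.5 in vascular barcodes, and at 168 and 141 CPM and then 65 and 80.3 CPM in Npr3-positive ones, a difference between the classes of 0.94 ± 0.14 (edgeR adjusted p = 1.84e-05). For Top2a the difference was 0.77 ± 0.14 (edgeR adjusted p = 0.000846) and for Cenpa 1.06 ± 0.14 (edgeR adjusted p = 8.55e-06). Thinned to 2000 UMIs, barcodes with at least 3 UMIs of these genes made up 51.9% and 45.8% of the vascular barcodes at E12.5, 45.9% and 46.5% in libraries of E14.5, 32.1% and 34.3% in libraries of E16.5, and 29.4% in the P3 matrix. Unthinned, the shares were 77.8% and 83.3%, 75.6% and 78.2%, 55.8% and 55.2%, and 60.3%. The thinned shares of the Npr3-positive barcodes were 25.3% and 22.5%, 17% and 19.8%, 7.08% and 12.8%, and 9.09%. Both classes had their lowest embryonic shares at E16.5, and the vascular share was the higher one in each matrix.

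Endocardial genes were low in the vascular barcodes and fell between E12.5 and E14.5. Of 15 tested, 0 rose and 9 fell, against 4.71% and 5.61% of all genes, with a median of -1.96. From E14.5 to E16.5, 3 rose (Vwf, Gata6 and Cdh11) and 0 fell, against 7.95% and 7.74% of all genes. The median of this step was 1.38, or 0.89 with genes at no count set to their bound. With at least 4 UMIs of Fabp4 and Cd36, 4 of the endocardial genes fell, and 5 fell without either E12.5 library. Plvap, a gene of endothelial diaphragms, stood at 83.7 and 90.3 CPM at E12.5, 20.9 and 25.1 CPM at E14.5, and 27.7 and 30.2 CPM at E16.5, and fell by 1.65 ± 0.19 on the log2 scale to E16.5 (edgeR adjusted p = 6.23e-07). In the Npr3-positive barcodes Plvap was at 277 to 520 CPM in the embryonic libraries. Hapln1, a hyaluronan link protein, went from 90.3 and 88.8 CPM at E12.5 to 7.87 and 7.63 CPM at E14.5 and 7.13 and 4.36 CPM at E16.5. The summed level of 17 endocardial genes was 356 and 409 CPM at E12.5, 108 and 116 CPM at E14.5, and 258 and 203 CPM at E16.5. These levels stood beside the threshold effect at E12.5, and its part in the fall was not tested.

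Markers of other cells were followed as a check on what else the barcodes held. Of the lymphatic endothelium list, 3 of 5 tested genes rose from E12.5 to E16.5, against 11.8% of all genes. Lyve1, a hyaluronan receptor, was at 0.908 to 3.06 CPM in the E12.5 and E14.5 libraries and at 49.3 and 66.1 CPM at E16.5, and Prox1, which defines lymphatic endothelium, was at 5.51 to 13.3 CPM and then 31.9 and 13.1 CPM. Lyve1 was also at 79.8 and 89.2 CPM in the Npr3-positive barcodes of E16.5. The summed level of 13 cardiomyocyte markers was 958 to 3269 CPM in embryonic vascular barcodes, against 42020 to 52206 CPM in free RNA. That of 10 mural markers was 56.2 to 153 CPM in embryonic libraries and 532 CPM at P3, and that of 11 macrophage and leukocyte markers 6.12 to 24 CPM in embryonic libraries and 113 CPM at P3. The sum of 10 fibroblast markers was 122 and 71.9 CPM at E12.5, 35.4 and 30.5 CPM at E14.5, 468 and 164 CPM at E16.5, and 392 CPM at P3. Of 8 tested fibroblast markers, 4 (Col3a1, Lum, Pcolce and Cdh11) rose from E14.5 to E16.5 and 0 fell, against 7.95% and 7.74% of all genes. The sum of 11 erythroid markers was 2117 and 2129 CPM at E12.5, 5256 and 1885 CPM at E14.5, 10056 and 17796 CPM at E16.5, and 17586 CPM at P3. Of these lists, Rgs5 was at 0 CPM in E12.5 replicate 2 and E14.5 replicate 2 and Pdgfrb in 3 of the embryonic libraries. The mural markers Kcnj8 and Abcc9 were higher in vascular than in Npr3-positive barcodes and Pdgfrb was lower. From E12.5 to E16.5 Kcnj8 and Abcc9 rose, and Tagln and Cnn1 fell. The mural sum lay below the Npr3-positive one in E12.5 and E14.5 libraries. It lay above at E16.5 (Npr3-positive 80.1 and 71.3 CPM) and P3 (147 CPM). The part of other-cell markers in the stage results was not tested, but the results were recomputed without barcodes with at least 3 UMIs over 11 marker genes of other cells or over 1% globin, which removed 0 to 18 barcodes per embryonic library and 185 at P3.

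The highest fitted fold changes between E12.5 and E16.5 included genes outside the lists. Sez6l2 had 0 counts at E12.5, 10.6 and 7.99 CPM at E14.5, and 33.5 and 42.1 CPM at E16.5, at least 19.3-fold higher at E16.5 with 3 counts over the group as the floor. C1qtnf9, a secreted C1q family protein, had 0 counts at E12.5, 9.39 and 4.72 CPM at E14.5, and 26.1 and 27.3 CPM at E16.5, at least 13.8-fold higher. Gm12002 was at least 11-fold higher by the same floor. Ly6a had 1 count at E12.5 and 312 at E16.5, a ratio of 74.5 with a counting interval of 13.3 to 2951. Lims2, an adaptor of integrin adhesions, had 1 count at E12.5 and 294 at E16.5. Aoc3, Mcf2l, Samd9l and Hspa1a also had 1 count each at E12.5, and the lower ends of their intervals were 10.2, 8.08, 7.14 and 10.4. Cd300lg and Ly6c1, described above, and the adult globin Hbb-bs, at 50.7 and 70.4 CPM and then 3846 and 7611 CPM, complete the 12 genes with the highest fitted fold changes. For genes with 0 or 1 count at E12.5 that order depends on the prior count of the fit, so it is no ranking of their true size.

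Among the 12 genes that fell most stood 3 embryonic globins, which belong to blood. Hbb-y was at 1149 and 1134 CPM at E12.5, 159 and 152 CPM at E14.5, and 0.264 and 0.363 CPM at E16.5, and Hba-x and Hbb-bh1 fell with it. Igfbp2 went from 43 and 75 CPM at E12.5 to 43 and 29.1 CPM at E14.5 and 8.44 and 9.08 CPM at E16.5, a difference of -2.76 ± 0.30 (edgeR adjusted p = 4.86e-07). Gsta4, a glutathione transferase, fell from 83.7 and 90.3 CPM to 17 and 9.81 CPM at E14.5 and 9.5 and 9.81 CPM at E16.5, a difference of -3.22 ± 0.25 (edgeR adjusted p = 9.35e-10). Ptgis, prostacyclin synthase, fell from 34.1 and 24.5 CPM to 4.49 and 4 CPM, and the imprinted gene Nnat from 24.2 and 41.3 CPM to 4.49 and 2.91 CPM. Acta1, Hapln1, Kcne3, Hey2 and Bex2 complete the 12. Of 12 imprinted growth genes, 3 rose (Igf2, Grb10 and Plagl1) and 2 fell (Ndn and Peg10), against 11.8% and 13.4% of all genes, and 1 rose among these imprinted growth genes without E12.5 replicate 1.

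**Figure D4:**
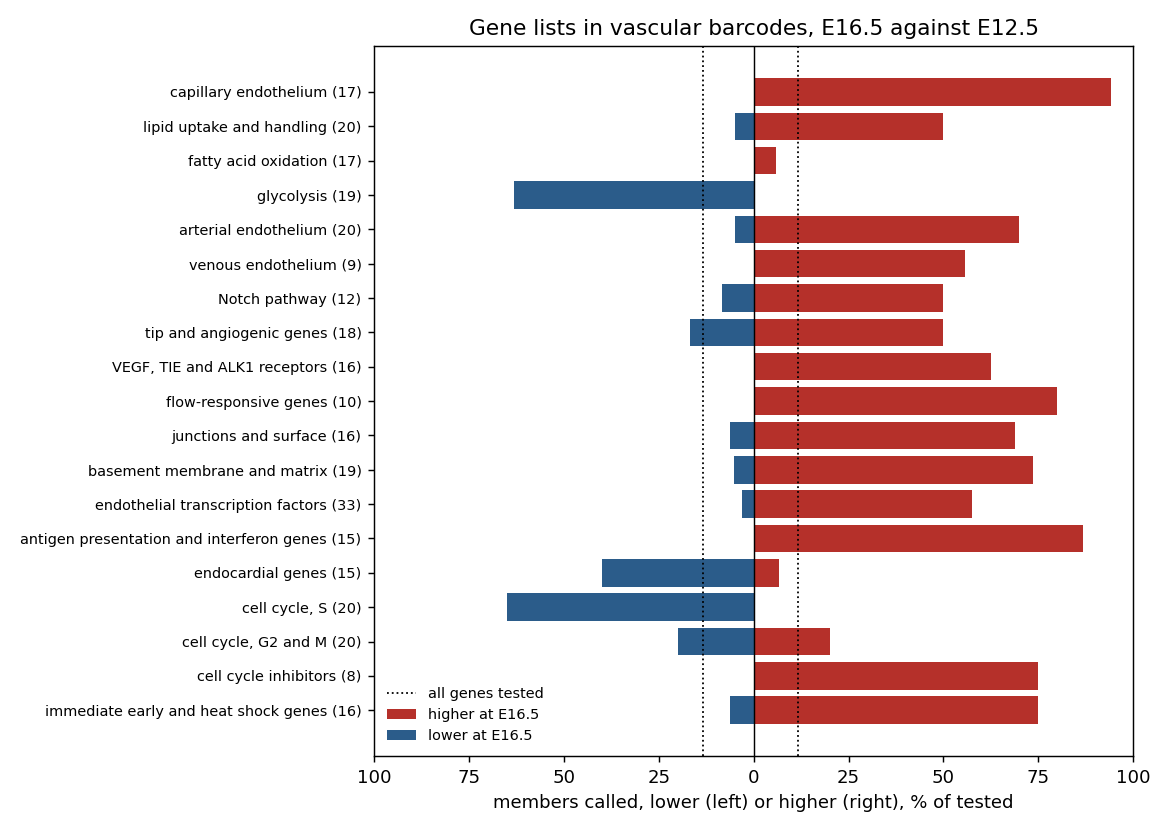
Share of the tested members of 19 gene lists that rose (red, right) or fell (blue, left) between E12.5 and E16.5 in vascular barcodes, in percent of the members tested, whose number stands in brackets. Dotted lines give the share of all genes tested, 13.4% lower and 11.8% higher. Capillary, antigen presentation and flow lists lie far to the right, and glycolysis and S phase lie to the left.

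P3 was described against E16.5 without a test, since it is 1 matrix. Of 2753 genes at 50 CPM or more, 43 (1.56%) were at least 4-fold above both E16.5 libraries and 0 (0%) were at least 4-fold below both. Only 16 of the 43 met this in each of the 2 suffixes that the P3 barcodes carry, 28 in suffix 1 and 31 in suffix 2. Taken alone, suffix 1 had 48 genes above and 22 below both E16.5 libraries by this measure, and suffix 2 had 48 and 2. The 43 include the rule gene Cd36, which helped choose the barcodes, and the cardiomyocyte markers Myh6 and Nppa. Car4 was highest by fold, at 224 CPM against 5.28 and 10.2 CPM, which is 22-fold over the nearer library. Timp4, an inhibitor of matrix proteases, was at 103 CPM against 4.75 and 7.27 CPM, 14.2-fold. Ly6a was at 289 CPM against 50.7 and 43.6 CPM, and Sox18, a vascular transcription factor, at 195 CPM against 39.8 and 37.8 CPM. Cdkn1a, the p21 cell cycle inhibitor, was at 534 CPM against 50.7 and 38.2 CPM, and the elastin gene Eln at 415 CPM against 86 and 28.7 CPM. Higd1b and Rgs5, which mark mural cells, were 12.6-fold and 11.8-fold higher, at 66.4 and 224 CPM, and Arrdc4 was 11.2-fold higher. Rpl13-ps3, Rps18-ps3, Rpl9-ps6, Gm10076 and Rpl10-ps3, which complete the 10 largest, are pseudogenes or unnamed genes whose reads may be shared with ribosomal protein genes. The P3 matrix carries another program version than the embryonic ones, and its part in their levels was not tested. Their levels also differed between the suffixes, as given below. Without the barcodes that carried markers of other cells, P3 kept 165 of 350 vascular barcodes.

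The P3 barcodes carry 2 suffixes, which the labels do not tie to a sample record, with 170 and 180 vascular barcodes. Of the 43 genes, Car4 was at 312 and 147 CPM by suffix, Timp4 at 155 and 57.7 CPM, Cdkn1a at 896 and 219 CPM, Sox18 at 132 and 250 CPM and Rgs5 at 141 and 296 CPM. Arrdc4 was at 235 and 17.4 CPM, against 10.6 and 8.72 CPM at E16.5. Rpl13-ps3 was at 9.91 and 127 CPM by suffix, Rps18-ps3 at 20.2 and 139 CPM and Rpl9-ps6 at 46.2 and 179 CPM. Rpl10-ps3 was at 82.2 and 501 CPM and Gm10076 at 625 and 1053 CPM. The rule gene Fabp4 was at 19111 and 10820 CPM. The thinned share of vascular barcodes with G2 and M genes was 7.65% (exact 95% interval 4.13 to 12.7%) in suffix 1 and 50% (42.5 to 57.5%) in suffix 2, with intervals over barcodes that cover counting error only, and no test was made between the suffixes. In the Npr3-positive barcodes the same shares were 7.22% and 13.1%. Mki67 stood at 28 and 115 CPM in the vascular barcodes of the suffixes. A pooled P3 value thus stands for a mixture of both.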

How the data were processed

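Hearts were profiled by droplet single-cell RNA sequencing. The authors deposited raw UMI counts per gene and barcode, whole numbers that were not normalized or corrected for free RNA, aligned to mm10. The headers of the embryonic matrices name Cell Ranger 3.1.0 and that of P3 3.0.0, while the submitters' processing notes list Cell Ranger 2.1.1 and Seurat 3.1.1. Embryonic matrices list 737280 barcodes each and P3 10964 filtered ones. The labels and the study's methods name different dissociation enzymes and reagent versions. Replicate 1 of stage E8.5 is not analysed here.

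Barcodes were selected as described, and counts were summed per library and class. Sums were scaled to CPM for display. Tests used edgeR 4.0.16 (R 4.3.3) with TMM factors, its expression filter and robust quasi-likelihood fits, with 3 residual degrees of freedom in both the vascular fit of 6 sums and the fit of 12 sums, and an adjusted p threshold of 0.05. Standard errors were taken as the size of the log2 fold change over the square root of F. Scripts were tested on simulated data. Doublets were not removed in the values reported, and their removal with Scrublet in scanpy 1.11.5 was an alternative. Other alternatives were DESeq2 1.42.0, its size factors, no expression filter, mitochondrial ceilings, thinning to 2000 UMIs, at least 4 UMIs of Fabp4 and Cd36, a replicate block, no library block, each library left out and, chosen after seeing the data, thinning after selection and removal of barcodes with markers of other cells. Libraries of the same number did not pair, since their deviations correlated at 0.0262, 0.0594 and 0.0674 across 9835 genes. With 1 matrix at P3 no test was made there.

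The members and the 30 gene lists were chosen with earlier results of these data known, and 4 listed genes were not in the matrices. Genes named were the rule genes, list members, and by fixed order of size the 12 rising and falling genes for E16.5 against E12.5, 6 each way for other contrasts, 10 for P3 and 12 each way between classes, at 20 CPM or more and without overlap between libraries, and 1 gene that this order takes is not reported here. Promoter sequences came from RefSeq GRCm38.p6. Precision was limited by 2 libraries per stage and by few barcodes at E12.5, and intervals cover counting error only.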

Additional observations from a re-analysis of the deposited data

Results flagged for a closer look

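Results in which the change over stages differed between vascular and Npr3-positive barcodes are given here with their values. Each was called by the edgeR test of that difference itself, which called 266 genes for E14.5 against E12.5, 366 for E16.5 against E14.5 and 701 for E16.5 against E12.5. The genes below are those with the largest differences whose libraries did not overlap. A positive value is a higher log2 change in the vascular barcodes, through a larger rise or a smaller fall there or a fall in Npr3-positive barcodes alone. A negative value is the reverse.

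For E14.5 against E12.5 the values were 3.89 for the platelet chemokine Pf4, 2.04 for Gja4, 2.02 for 2610305D13Rik, 1.98 for Nr4a1, 1.76 for Fam101b and 1.59 for the caveolar gene Sdpr. The vascular rises of Pf4 and Gja4 were not called by themselves, and the Npr3-positive level of Gja4 was lower at E14.5. Negative values were found for genes that the Npr3-positive barcodes express, namely -8.68 for Gata5, -6.29 for Nrg1, -3.77 for Spon1, -3.65 for Mfap5, -3.25 for Hand2 and -3.23 for Nkd1. Hand2, a transcription factor of the endocardium, stood at 49.6 and 73.5 CPM at E12.5 and 6.66 and 9.08 CPM at E14.5 in vascular barcodes, and at 133 and 139 CPM and then 170 and 179 CPM in Npr3-positive ones. Gata5 had 0 counts in the vascular barcodes of E14.5, so that its fitted value depends on the prior count and is no bound, and Nrg1 had 1 count there, which leaves its value nearly as uncertain.

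For E16.5 against E14.5 the values were 7.63 for Pdgfrb, 4.42 for Mndal, 3.96 for Igfbp7, 2.90 for Col3a1, 2.74 for Mmrn1 and 2.57 for Lyve1. Pdgfrb marks mural cells and Col3a1 fibroblasts, and Pdgfrb had 0 counts in the vascular barcodes of E14.5, so the same limit applies. Negative values were -1.54 for Creld1, -1.51 each for Slc16a3 and Fam174b, all 3 of which fell in vascular barcodes, -1.28 for Ndrg1, which rose there, -1.20 for D8Ertd82e and -1.19 for Sft2d2.

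For E16.5 against E12.5 the values were 5.25 for Mndal, 5.04 for Pf4, 3.79 for the tetraspanin Tspan7, 3.65 for Sult1a1, 3.57 for Mmrn1 and 3.42 for Nr4a1. Mndal had 1 count in the vascular barcodes of E12.5, a summed ratio of 29.4 with a counting interval of 5.17 to 1169. Sult1a1 had 2 counts there. Pf4 had 4 there and 178 at E16.5, and its vascular rise was not called by itself. Tspan7 stood at 4.41 and 1.53 CPM at E12.5 and 85.2 and 89 CPM at E16.5 in vascular barcodes, and at 12.4 and 13.1 CPM and then 29.6 and 20.4 CPM in Npr3-positive ones. Negative values were -4.23 for Gata5, -3.98 for Oit3, -3.71 for Nrg1, -3.21 for Col15a1, -3.11 for Spon1 and -3.04 for Mfap5. Col15a1 was higher at E16.5 in both classes, going from 30.8 and 62.8 CPM to 102 and 95.9 CPM in vascular and from 0.701 and 0.832 CPM to 14.8 and 17.5 CPM in Npr3-positive barcodes.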

How the results depend on the processing

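Counts of called genes moved with the test and with the libraries. For vascular barcodes, DESeq2's Wald test called 565 genes for E14.5 against E12.5 (edgeR 1015), 587 for E16.5 against E14.5 (1543) and 1515 for E16.5 against E12.5 (2474). Without 1 library in turn the counts were 437 to 1048, 679 to 2074 and 1653 to 2260. The first was 648 without E12.5 replicate 1, 490 without E14.5 replicate 1 and 437 without E14.5 replicate 2, and the second 679 and 694 without the same E14.5 replicates and 727 without E16.5 replicate 1. Thinning after selection, which leaves a small part of the counts, gave 69, 272 and 273, and thinning before selection gave 131 for E16.5 against E14.5. Thinning before selection left 3 and 0 vascular barcodes at E12.5, so that the other contrasts could not be fitted. For the difference between classes, DESeq2 called 90, 77 and 285 genes (edgeR 266, 366 and 701), thinning after selection 46, 59 and 135, and thinning before selection 9 for E16.5 against E14.5. Without the library block the counts were 128 for E14.5 against E12.5 and 203 for E16.5 against E14.5. For E14.5 against E12.5, no expression filter gave 511 and at least 4 UMIs of Fabp4 and Cd36 gave 130. Leaving out 1 library gave 137 to 389, 162 to 501 and 507 to 755, with 159 without E12.5 replicate 2 and 137 without E14.5 replicate 1 for the first, and 162, 216 and 182 without E14.5 replicate 1, E14.5 replicate 2 and E16.5 replicate 1 for the second. With DESeq2's size factors, 69.3% of the calls for E16.5 against E14.5 were higher, against 58.7%. The replicate block, whose numbers do not pair the libraries, called 1243, 1877 and 2652 genes in vascular barcodes. The vascular share of endothelial barcodes (2.42%, 40.34% and 54.35% at E12.5, E16.5 and P3) was 0.602%, 42.15% and 66.35% thinned, 2.91%, 45.96% and 63.2% without barcodes with markers of other cells, 1.58% and 38.3% at E12.5 and E16.5 with at least 4 UMIs, and 41.1% at E16.5 without doublets. The arterial share was 0% in E12.5 barcodes under both kinds of thinning. Thinned before and after selection, it was 14.47% and 11.2% in E14.5 barcodes, 16.85% and 13.9% in E16.5 barcodes, and 17.5% and 15.4% in P3 barcodes. At E12.5 it was 55.9% under mitochondrial ceilings, 57.1% without markers of other cells and 62.1% with at least 4 UMIs, and at P3 76.4% without markers of other cells. The share with G2 and M genes (80.56%, 76.9%, 55.5% and 60.3%) was 100% (of 3 barcodes), 43.98%, 31.5% and 25.7% thinned before and 48.8%, 46.2%, 33.2% and 29.4% thinned after selection. It was 87.3% and 56.7% at E12.5 and E16.5 with at least 4 UMIs, 52.97% and 44.2% at E16.5 and P3 without markers of other cells, and 54.6% at E16.5 without doublets. At P3, 19 genes were called at 8-fold, 70 (48 higher and 22 lower) in suffix 1 alone and 53 to 59 without 1 E16.5 library (43 as reported). Of the named genes, 679 repeats in vascular barcodes kept direction and call, 20 lost the call and 1 reversed, Thbs1 for E14.5 against E12.5, at 0.34 with at least 4 UMIs. Genes no longer tested in a repeat were not counted. Thinning after selection gave 18 that kept both, against 48 with DESeq2's size factors, and 5 that lost the call. In the difference between classes 453 kept both, 84 lost the call and 2 reversed, Gata5 after thinning, at 0.48 for E14.5 against E12.5 and 0.99 for E16.5 against E12.5. There, thinning after selection gave 6 that kept both, 25 that lost the call and these 2 reversals. Where no construction is named, the cause was not tested. Depth limits rare genes at E12.5 most, where the libraries hold 27 and 24 vascular barcodes.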

Other observations

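Values that belong to no comparison are given here. Of the endothelial barcodes, 948 carried neither Npr3 nor 2 UMIs of Fabp4 and Cd36 and were not described further. Tnnt2 of 1000 CPM or more kept 30 to 86 barcodes per matrix out of the endothelial barcodes. These had at least 3 UMIs over Pecam1, Cdh5 and Egfl7 and were counted whatever their Npr3, Fabp4 and Cd36. Igfbp3 and Apln were not alone in a peak at E14.5, since Ybx3 stood at 109 and 156 CPM at E12.5, 273 and 308 CPM at E14.5, and 72.6 and 108 CPM at E16.5 in the vascular barcodes. Cdkn1c, an imprinted cell cycle inhibitor, stood at 923 and 355 CPM at E12.5 in vascular and at 5933 and 5574 CPM in Npr3-positive barcodes, and at P3 at 217 CPM in vascular and 727 CPM in Npr3-positive ones. Wt1 was the epicardial marker that was higher in vascular barcodes in each embryonic library.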
